A study of Mus musculus with 9 samples.

Results

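Histone genes were read from every row of the array table that lists a histone symbol, whether the row carries 1 gene symbol or several. A row belonged if any of its symbols began with H1f, H2a, H2b, H3c, H3f, H4c or H4f, or had an older cluster name of the Hist1h to Hist4h form. The rule found 110 of 41345 rows, 51 with 1 symbol and 59 with several, and these rows name 101 histone symbols. RNA came from freshly dissected cortex of wild-type (WT) CD1 mouse embryos at embryonic days 12 to 13, as 3 groups of 3 biological replicates. The first group was RNA recovered with a rabbit antibody to Pum2, an RNA-binding repressor of translation from the Pumilio family. The second was RNA recovered with normal rabbit IgG, the background of the precipitation, and the third was total input RNA, for which no antibody was used. The groups share genotype, strain, stage and tissue, and the labels do not state how many embryos were pooled per replicate.

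Histones package DNA. The core histones H2A, H2B, H3 and H4 form the nucleosome, and linker histones of the H1 family bind where DNA enters and leaves it. Replication-dependent histone genes lie in clusters and are made in S phase, and their mRNAs end in a stem-loop bound by Slbp in place of a poly(A) tail. Variant histone genes mostly lie alone, are made through the cell cycle and usually give polyadenylated mRNA. In the embryonic cortex, radial precursors divide and young neurons do not, and replication-dependent histone mRNA is a property of dividing cells.

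The promoters of 5 histone genes are shown because the rows of these genes carry the patterns described below or, for H2bc3, all of the motifs searched. H1f1, H1f5, H2ac20 and H2bc3 are replication-dependent, and H1f10 is a variant. Each window holds the 150 bases before the RefSeq transcript start, given 5′ to 3′ on the gene's own strand in the GRCm38.p6 build. Capitals mark the letters CCAAT (the box bound by NF-Y), TATAAA (the core promoter box bound by TBP) and ATTTGCAT (the octamer bound by POU factors), searched on both strands, so that ATTGG is a CCAAT match on the opposite strand. H1f1 lies on the plus strand at chr13:23763518-23763667, H1f5 on the minus strand at chr13:21780626-21780775 and H2bc3 on the plus strand at chr13:23746584-23746733. H2ac20 lies on the minus strand at chr3:96220881-96221030 and H1f10 on the minus strand at chr6:87981483-87981632.
H1f1: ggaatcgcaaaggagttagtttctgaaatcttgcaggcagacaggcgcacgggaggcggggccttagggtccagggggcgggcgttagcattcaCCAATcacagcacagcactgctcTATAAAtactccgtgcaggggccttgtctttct
H1f5: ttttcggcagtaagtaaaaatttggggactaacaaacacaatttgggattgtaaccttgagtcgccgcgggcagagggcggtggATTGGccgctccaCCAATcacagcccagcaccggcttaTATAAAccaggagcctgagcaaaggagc
H1f10: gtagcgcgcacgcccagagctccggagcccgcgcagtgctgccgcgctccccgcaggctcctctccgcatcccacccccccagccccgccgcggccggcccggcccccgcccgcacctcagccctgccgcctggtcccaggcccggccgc
H2ac20: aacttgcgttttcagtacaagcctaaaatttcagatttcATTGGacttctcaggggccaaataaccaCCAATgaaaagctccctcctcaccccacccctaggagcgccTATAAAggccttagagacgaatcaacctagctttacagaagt
H2bc3: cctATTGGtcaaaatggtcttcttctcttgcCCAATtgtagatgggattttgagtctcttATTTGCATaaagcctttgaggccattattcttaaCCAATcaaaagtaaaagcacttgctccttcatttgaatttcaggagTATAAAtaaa

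Of the 101 histone symbols, 93 had a RefSeq promoter window. CCAAT was present in 45 of 55 somatic replication-dependent genes (81.8%), against 27.7% of the 27025 genes of the promoter table. It was found in all 5 H1, all 16 H2A and all 13 H2B genes of that class, in 8 of 10 H3 genes and in 3 of 11 H4 genes. TATAAA was present in 21 of these 55 genes (38.2%, against 8.89% of all genes). The octamer was present in 9 of them (16.4%, against 1.17% of all genes), 6 of which were H2B genes. Of the 55 genes, 47 lie on chromosome 13 and 8 on chromosome 3. Among somatic variant genes CCAAT was found in 7 of 10, and TATAAA and the octamer in 2 of 10 each (20%). H1f10 held none of the motifs. A match of letters is a description of the window and not a measured binding site.

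The array values are log2 signals, and a difference is given as a log2 difference ± its standard error from limma with 3 arrays per group. A row was called when its limma p, with Benjamini-Hochberg adjustment across the 41345 rows, was below 0.05. The signal is relative to the other RNA on the same array, so a lower value in a precipitate is a smaller share of the recovered RNA. Array medians lay between 5.37 and 5.57, and 72 of the 110 histone rows were at or above the median level of 5.47. As a check of the labelled tissue, all 9 measured radial precursor markers and all 7 young neuron markers were at or above that level, and none of 4 male germ cell markers was. All measured markers of endothelial cells (6), meninges and mesenchyme (6), microglia (5) and erythroid cells (4) were at or above it too, so the level does not set cortical cells apart from these. Pum2 mRNA itself was higher in its own precipitate, by 0.30 ± 0.10 relative to IgG (adjusted p = 0.0485) and by 0.91 ± 0.10 relative to input (adjusted p = 1.68e-04). It was also higher in the IgG precipitate than in input, by 0.61 ± 0.10 (adjusted p = 0.00469). The call relative to IgG was lost with quantile normalization run again.

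Histone rows as a group did not stand to one side of IgG in the Pum2 precipitate, but in both precipitates more of them were called lower than higher against input. In Pum2 over IgG, 16 of the 110 rows were higher and 14 lower, where 11.8% of all rows were higher and 15.7% lower. Their median difference was 0.02, against -0.02 over all rows. In Pum2 over input, 2 rows were higher and 41 lower, where 12.9% and 16% of all rows were, and the median was -0.24 against 0.00. In IgG over input, 1 row was higher and 43 lower, where 5.98% and 7.14% of all rows were, and the median was -0.36 against 0.02. Counted by arrays that did not overlap, 30 rows were higher and 21 lower in Pum2 over IgG (18.3% and 22.1% of all rows), 9 and 48 in Pum2 over input (20% and 22%), and 6 and 59 in IgG over input (14.6% and 14.4%). Among the 72 brighter histone rows, 15 were higher and 9 lower over IgG (22% and 22% of all rows that bright), 1 and 35 in Pum2 over input (23.7% and 24.5%), and 1 and 34 in IgG over input (9.27% and 12.9%). The 2 rows higher in Pum2 than in input belonged to the variants H1f10 and H2ab1, and the H2ab1 row is dim, with a mean level of 4.85. Only 1 histone row was higher when the fit held only the groups compared. The same held without Pum2 replicate 1 or 2, any 1 IgG replicate, or input replicate 1 or 2. Of these settings, only leaving out input replicate 2 ended the call of H1f10. The 3 comparisons share arrays, so they are not independent of each other.

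The split between higher and lower calls moved with the scaling of the Pum2 arrays. With quantile normalization run again, 31 rows were higher and 12 lower in Pum2 over IgG (72.1% of calls higher, against 53.3% as deposited). Of the calls over all rows, 62.5% were then higher, against 42.9% as deposited. In Pum2 over input 13 histone rows were higher and 33 lower (28.3% against 4.65%), and over all rows 61% of calls were higher, against 44.6%. That scaling took the median of all rows to 0.13 in both Pum2 comparisons, and the median of the histone rows to 0.20 over IgG and -0.08 over input. With arrays centred on the brighter rows the counts were 29 and 11 over IgG (72.5% higher) and 11 and 33 over input (25% higher). Over all rows 58.7% and 62.1% of calls were higher with centring, so the shift was not particular to histone rows. In IgG over input, where neither scaling moved the split as far, 41 and 40 rows were lower.

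For the counts by class, the shares of all rows called higher and lower were 11.8% and 15.7% in Pum2 over IgG. They were 12.9% and 16% in Pum2 over input, and 5.98% and 7.14% in IgG over input. Among rows at or above the median level the shares were 22% and 22%, 23.7% and 24.5%, and 9.27% and 12.9%, in that order. At an unadjusted p under 0.05 (limma), 6668 of all 41345 rows were higher and 8642 lower in Pum2 over IgG. Those counts were 7212 and 8393 in Pum2 over input, and 5506 and 5331 in IgG over input. By class of gene, of 57 rows of somatic replication-dependent genes, 0 were higher and 35 lower in IgG over input (limma). Also 0 were higher at an unadjusted p under 0.05, and the median was -0.59. In Pum2 over input 0 were higher and 30 lower (0 higher at an unadjusted p under 0.05), with a median of -0.49, or -0.36 with quantile normalization and -0.35 with centring, where 2 rows became higher. In Pum2 over IgG the same class gave 9 higher and 8 lower, with a median of 0.13, or 20 and 8 with quantile normalization. With that normalization 9117 of all 41345 rows were higher and 5466 lower. All 40 replication-dependent rows at or above the median level had a negative difference in IgG over input, and 27 of them were called, where 12.9% of all rows that bright were lower. Of the 17 rows of somatic variant genes, 15 were at or above the median level. Of the 17, 5 were higher and 3 lower over IgG, 1 and 8 in Pum2 over input, and 0 and 7 in IgG over input. In IgG over input 0 were higher at an unadjusted p under 0.05. The 5 and 3 over IgG are near the shares of the brighter rows. Of the 17 rows, 5 belong to H2aw, H2aj, H2bu2 and H4f16, which were classed as variants from their symbols alone and may be replication-dependent. Without them, a choice made after seeing the data, the other 12 rows gave 4 higher and 2 lower over IgG, 1 and 5 in Pum2 over input, and 0 and 4 in IgG over input (0 higher at an unadjusted p under 0.05). The median of those 12 in Pum2 over input was -0.10, and it turned to 0.05 with quantile normalization and 0.03 with centring. Rows of variants of the germ-cell type gave 1 higher and 2 lower of 27 over IgG, 1 and 2 in Pum2 over input, and 1 and 0 in IgG over input (3 lower at an unadjusted p under 0.05). Calls of this type were below the shares of all rows in each comparison. The levels are of bulk tissue, in which fewer cells of a type and less RNA per cell cannot be told apart, while a difference between a precipitate and input is one of shares of the recovered RNA.

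**Figure D1:**
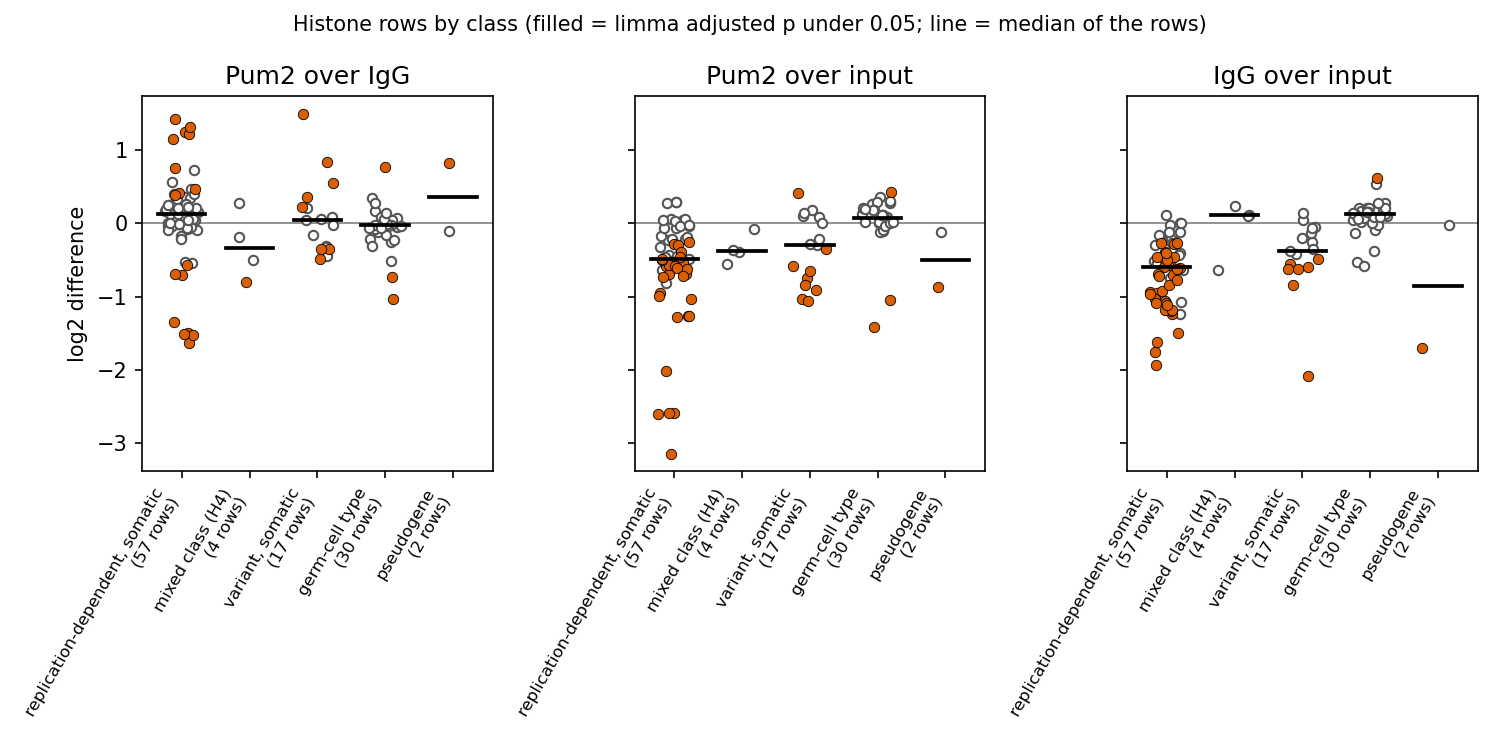
Log2 differences of the 110 histone rows in the 3 comparisons (y axis), by class (x axis, with the number of rows), 1 point per row, filled where limma's adjusted p was under 0.05 and with a line at the median. Replication-dependent somatic rows lie mostly below 0 in Pum2 over input and IgG over input (medians -0.49 and -0.59) and spread to both sides of 0 in Pum2 over IgG.

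Among linker histone genes of the cluster, H1f1 and H1f5 were low in IgG alone. H1f1 had 8.17, 8.002 and 8.30 in the Pum2 precipitates, 6.83, 6.80 and 7.11 in IgG and 8.12, 7.93 and 8.24 in input. The IgG arrays lay wholly below the other 2 groups, which overlapped. H1f1 was higher by 1.24 ± 0.12 in Pum2 over IgG (2.37-fold, adjusted p = 1.86e-04) while IgG stood -1.18 ± 0.12 from input (adjusted p = 9.2e-04). Between Pum2 and input the difference was 0.06 ± 0.12 (adjusted p = 0.784).

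H1f5 followed the same order, with 9.28, 9.02 and 8.76 in Pum2, 7.37, 8.11 and 7.91 in IgG and 9.06, 8.82 and 9.07 in input. Again every IgG array lay below every Pum2 and input array. The difference was 1.22 ± 0.20 over IgG (adjusted p = 0.00224), -1.19 ± 0.20 for IgG over input (adjusted p = 0.00663) and 0.04 ± 0.20 for Pum2 over input (adjusted p = 0.921). H1f2, also a somatic linker, was not called in any comparison of the main fit (0.17 ± 0.12 over IgG and -0.23 ± 0.12 over input for Pum2, and -0.40 ± 0.12 for IgG over input). The last of these was called with only rows at or above the median level, only rows with a symbol, or without input replicate 2 (adjusted p = 0.0327, 0.0404 and 0.0282). H1f3 was at -0.50 ± 0.16 in IgG over input (adjusted p = 0.0814) and at -0.09 ± 0.16 in Pum2 over IgG. The first value was called with only rows at or above the median level, only rows with a symbol, or without Pum2 replicate 2 (adjusted p = 0.0375, 0.0439 and 0.0426). In the main fit H1f3 was called lower in Pum2 over input alone (-0.59 ± 0.16, adjusted p = 0.0239). Without Pum2 replicate 2, input replicate 1 or input replicate 3 that call ended (-0.43, -0.51 and -0.60), as it did with quantile normalization or centring (-0.45 in each). The row that lists H1f4 (17291195) also lists the H2B genes H2bc4, H2bc6 and H2bc8, so no linker value can be read from it. It had 6.99, 6.76 and 6.94 in Pum2, 7.48, 7.46 and 7.46 in IgG and 8.21, 8.18 and 8.07 in input. Here Pum2 was lowest and IgG stood between, with no overlap of any 2 groups. Pum2 differed by -0.57 ± 0.08 from IgG and by -1.26 ± 0.08 from input, and IgG by -0.69 ± 0.08 from input (adjusted p = 0.00122, 1.66e-05 and 0.00153).

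H2A genes of the clusters encode the histone that flanks H2B in the nucleosome, and most of their rows were lower in both precipitates than in input. Of 18 rows, 4 were higher and 1 lower in Pum2 over IgG, 0 and 10 in Pum2 over input, and 0 and 13 in IgG over input (0 higher at an unadjusted p under 0.05 in both). For the counts by histone type, the shares of all rows called higher and lower were 11.8% and 15.7% over IgG, 12.9% and 16% in Pum2 over input, and 5.98% and 7.14% in IgG over input, and of all rows as bright as the median 22% and 22%, 23.7% and 24.5%, and 9.27% and 12.9%. The 4 of 18 higher over IgG is near the share of the brighter rows. H2ac20 had 9.32, 9.03 and 9.19 in Pum2, 8.67, 8.97 and 8.73 in IgG and 9.95, 9.84 and 9.93 in input. Input was highest on every array and Pum2 lay above IgG without overlap. H2ac20 was at -0.72 ± 0.11 in Pum2 over input (adjusted p = 0.00113), and at -1.11 ± 0.11 in IgG over input (adjusted p = 7.19e-04). The brighter row of H2ac21 (17400539) had 9.24, 9.02 and 8.99 in Pum2, 8.33, 8.69 and 8.84 in IgG and 10.21, 10.12 and 9.9996 in input. Its groups stood in the same order without overlap, with -1.03 ± 0.14 in Pum2 over input and -1.49 ± 0.14 in IgG over input (adjusted p = 6.57e-04 and 6.18e-04).

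H2ac15 had 8.56, 8.26 and 8.69 in Pum2, 8.14, 8.58 and 8.22 in IgG and 9.07, 9.39 and 9.24 in input. Both precipitates lay below input and overlapped with each other. The differences from input were -0.73 ± 0.15 for Pum2 and -0.92 ± 0.15 for IgG (adjusted p = 0.00716 and 0.00632). Over IgG, H2ac10, H2ac20 and H2ac21 were higher in Pum2 by 0.42 ± 0.12, 0.39 ± 0.11 and 0.46 ± 0.14 (adjusted p = 0.0309, 0.0278 and 0.0375). Those 3 calls were lost without Pum2 replicate 1 (0.36, 0.32 and 0.38) or IgG replicate 1 (0.36, 0.33 and 0.32). Without Pum2 replicate 3 (0.39, 0.38 and 0.51) they were lost as well. Without IgG replicate 3 the calls of H2ac10 and H2ac20 were lost (0.42 and 0.36), and without Pum2 replicate 2, IgG replicate 2 or input replicate 2 that of H2ac21 was (0.49, 0.50 and 0.46).

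Rows that list the same H2A genes did not move alike. There were 7 rows listing the same 10 H2A symbols, H2ac4 and H2ac11 among them. Their differences ran between -0.69 and 1.43 in Pum2 over IgG, with 1 higher, 1 lower and a median of -0.03. In Pum2 over input all 7 were negative, between -1.28 and -0.46, and 6 were called lower. Row 17291057, which lists H2ac11 first, had 7.47, 7.64 and 7.26 in Pum2, 5.996, 6.21 and 5.88 in IgG and 7.96, 8.19 and 7.73 in input. The IgG arrays were far below the rest, and input was highest. It was higher by 1.43 ± 0.15 in Pum2 over IgG (2.69-fold, adjusted p = 2.32e-04) and at -1.93 ± 0.15 in IgG over input (adjusted p = 3.42e-04). Its call in Pum2 over input (-0.51 ± 0.15, adjusted p = 0.0343) ended without Pum2 replicate 1 (-0.51), Pum2 replicate 3 (-0.41), input replicate 1 (-0.50) or input replicate 2 (-0.39), and in 3 other settings. Row 17285867, which lists H2ac4 first, ran the other way, with 7.50, 7.76 and 8.13 in Pum2, 8.64, 8.41 and 8.40 in IgG and 9.14, 9.13 and 8.96 in input. Its Pum2 arrays were the lowest, at -0.69 ± 0.15 over IgG (adjusted p = 0.0106) and -1.28 ± 0.15 over input (adjusted p = 3.49e-04).

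H2B rows of the clusters were lower in Pum2 than in input in 9 of 16 cases and lower in IgG than in input in 8 of 16, with none higher in either (limma, and 0 higher at an unadjusted p under 0.05). Over IgG, 2 were higher and 1 lower in Pum2. H2bc9 had 7.09, 6.49 and 6.64 in Pum2, 4.84, 5.81 and 5.61 in IgG and 6.44, 6.15 and 6.78 in input. As with H1f1, IgG was lowest and Pum2 overlapped input. H2bc9 was higher by 1.32 ± 0.28 in Pum2 over IgG (2.49-fold, adjusted p = 0.00751), while its difference from input was 0.28 ± 0.28 (adjusted p = 0.522). Its IgG over input call (-1.04 ± 0.28, adjusted p = 0.0411) was fragile, since leaving out any array except Pum2 replicate 1 or IgG replicate 2 ended it. Those values ran between -1.19 (without input replicate 2) and -0.75 (without IgG replicate 1), with -1.04 without Pum2 replicate 2 or 3, -1.13 without IgG replicate 3, -1.05 without input replicate 1 and -0.87 without input replicate 3.

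H2bc22 had 6.28, 6.06 and 6.41 in Pum2, 6.31, 6.54 and 5.91 in IgG and 7.44, 7.19 and 6.94 in input. Both precipitates lay below input and overlapped with each other. Both differed from input by -0.94 ± 0.19 (adjusted p = 0.00499 for Pum2 and 0.0129 for IgG). H2bc3 was at -0.30 ± 0.08 in Pum2 over input and -0.46 ± 0.08 in IgG over input (adjusted p = 0.0188 and 0.00665). The first of these ended with quantile normalization (-0.16), with centring (-0.17) and without Pum2 replicate 2 (-0.25), input replicate 2 (-0.29) or input replicate 3 (-0.30). A pair of rows list the same 3 genes, H2bc4, H2bc6 and H2bc8, and went opposite ways over IgG. Row 17285851 was higher by 0.76 ± 0.15 (adjusted p = 0.00493). Row 17285834 had 5.73, 5.65 and 4.60 in Pum2, 7.24, 6.001 and 6.77 in IgG and 8.38, 7.57 and 7.76 in input. Its Pum2 arrays lay below the other groups, at -1.34 ± 0.39 over IgG (adjusted p = 0.0348) and -2.58 ± 0.39 over input (adjusted p = 0.00127). The call over IgG was lost without Pum2 replicate 2 (-1.50), Pum2 replicate 3 (-0.98), IgG replicate 1 (-1.06), IgG replicate 3 (-1.29) or input replicate 3 (-1.34).

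All 12 rows of clustered H3 genes list several symbols, so no single H3 gene could be read. In IgG over input all 12 were negative and 9 were called lower, with a median of -0.76. In Pum2 over input 6 were lower and 0 higher (0 at an unadjusted p under 0.05), and over IgG 1 was higher and 3 lower. The 4 rows that list H3c1, H3c8, H3c10 and H3c11 were all above IgG and below input, with differences between 0.33 and 1.15 over IgG, and 1 of them was called higher. That row (17285680) had 8.46, 8.21 and 8.26 in Pum2, 6.83, 7.26 and 7.39 in IgG and 8.86, 8.80 and 9.07 in input. IgG was lowest and input highest, with no overlap. Pum2 differed by 1.15 ± 0.15 from IgG and by -0.60 ± 0.15 from input, and IgG by -1.75 ± 0.15 from input (adjusted p = 7.38e-04, 0.0172 and 4.85e-04). The second of these was lost without Pum2 replicate 2 (-0.55), Pum2 replicate 3 (-0.57) or input replicate 3 (-0.52), and with centring (-0.47).

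The other 8 rows of clustered H3 genes list 8 symbols in common, H3c2 and H3c13 among them, and ran between -1.63 and 0.72 over IgG. Row 17291183 had 3.92, 4.33 and 3.78 in Pum2, 5.77, 5.59 and 5.55 in IgG and 6.97, 6.20 and 6.62 in input. Row 17291222 had 3.93, 3.86 and 3.76 in Pum2, 5.80, 5.68 and 4.65 in IgG and 7.24, 6.99 and 6.76 in input. In both, the Pum2 arrays were lowest, IgG stood between and no 2 groups overlapped. The first differed by -1.63 ± 0.21 over IgG (adjusted p = 5.77e-04) and -2.59 ± 0.21 over input (adjusted p = 4.11e-05). The second differed by -1.53 ± 0.28 and -3.15 ± 0.28 (adjusted p = 0.00369 and 6.83e-05), the largest drop from input among the histone rows, 8.86-fold. Their Pum2 levels were below the median of all rows, where a log2 difference is less certain.

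H4 is the partner of H3 in the nucleosome core. Of 8 rows of clustered H4 genes, 0 were higher and 2 lower in Pum2 over IgG, 0 and 3 in Pum2 over input, and 0 and 2 in IgG over input (0 higher at an unadjusted p under 0.05 in each). The 2 lower calls over IgG are near the share of the brighter rows, and 8 rows are few for such a comparison. In Pum2 over input all 8 differences were negative, with a median of -0.50. At an unadjusted p under 0.05 (limma) 5 of them were lower there, as were 8393 of all 41345 rows. In IgG over input 7 of the 8 were negative, with a median of -0.27. H4c14 had 4.73, 4.82 and 5.09 in Pum2, 6.39, 6.39 and 6.39 in IgG and 7.54, 7.27 and 7.62 in input. The groups formed 3 separate steps with Pum2 lowest. H4c14 differed by -1.51 ± 0.12 over IgG, -2.60 ± 0.12 over input and -1.08 ± 0.12 in IgG over input (adjusted p = 6.53e-05, 3.23e-06 and 0.00113). It was 2.86-fold and 6.06-fold lower in Pum2 than in IgG and input. Its Pum2 levels were below the median of all rows, where a log2 difference is less certain. H4c8, a dim row, was at -0.70 ± 0.13 over IgG (adjusted p = 0.00481) and -0.69 ± 0.13 over input (adjusted p = 0.00452). H4c12 was called in no comparison of the main fit (-0.05 ± 0.11, -0.32 ± 0.11 and -0.27 ± 0.11). In Pum2 over input it was called lower with the replicate block, and with only rows at or above the median level or with a symbol. An intensity trend with a robust prior, or leaving out Pum2 replicate 3 or input replicate 2, also brought that call (adjusted p = 0.0257, 0.0172 and 0.048). A further 4 rows list 12 clustered H4 genes together with H4f16, all at mean levels between 2.62 and 3.69, and 1 of them was lower over IgG.

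**Figure D2:**
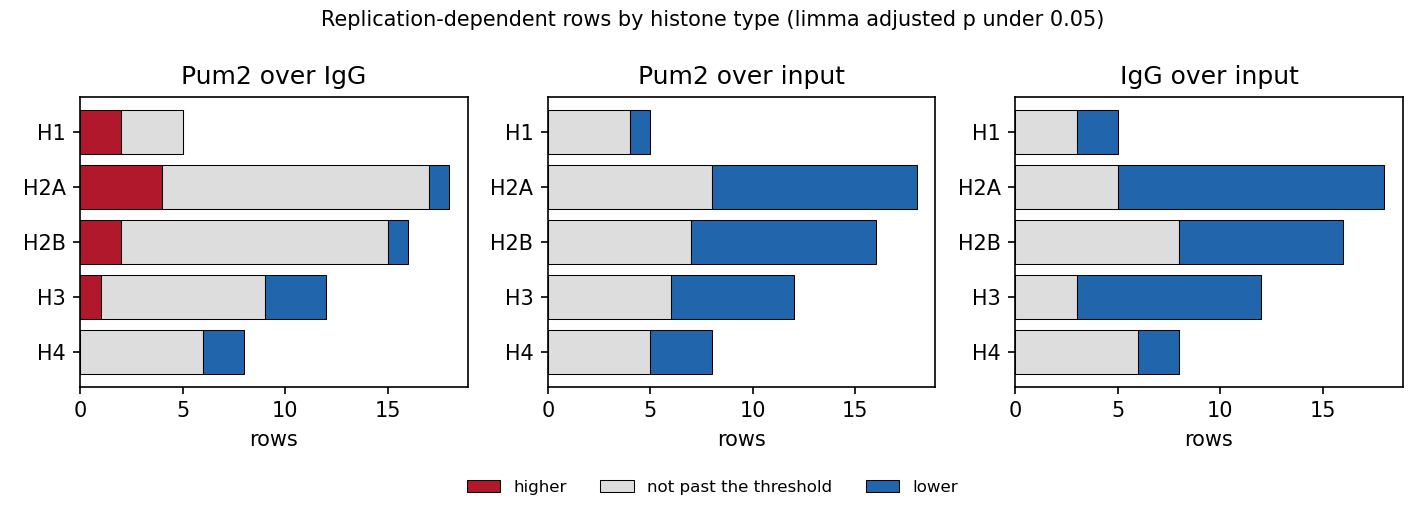
Number of rows of replication-dependent genes (x axis) by histone type (y axis) that were higher, lower or not past the threshold in each comparison, by limma's adjusted p under 0.05. Over IgG the H2A rows split into 4 higher and 1 lower of 18, while 10 of them were lower in Pum2 over input and 13 in IgG over input.

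**Figure D3:**
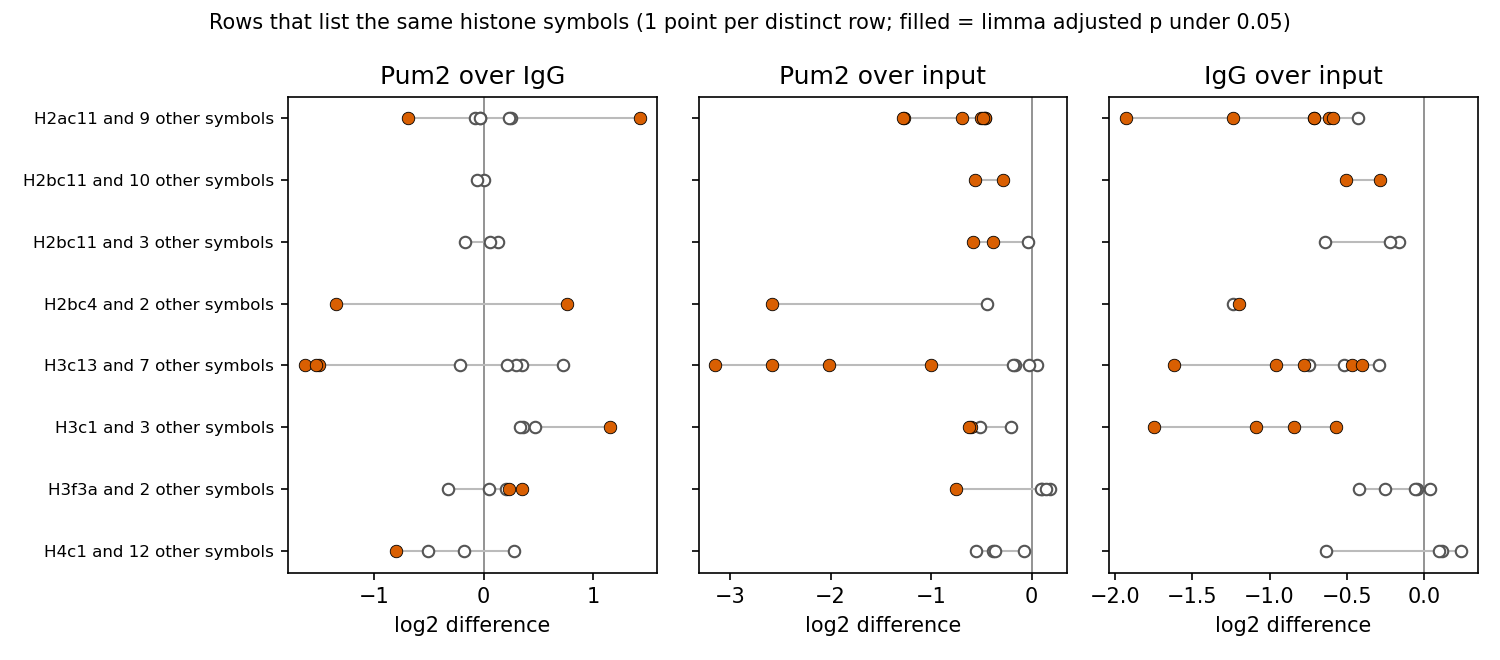
Log2 differences (x axis) of rows that list the same histone symbols (y axis), 1 point per distinct row, filled where limma's adjusted p was under 0.05. The rows listing 8 H3 symbols run between -1.63 and 0.72 in Pum2 over IgG and those listing 10 H2A symbols between -0.69 and 1.43.

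Among the variants, the linker gene H1f10 was higher in the Pum2 precipitate than in both other groups. Its main row had 9.86, 10.22 and 9.91 in Pum2, 9.44, 9.42 and 9.49 in IgG and 9.58, 9.54 and 9.64 in input. Every Pum2 array lay above every other array. H1f10 was higher by 0.55 ± 0.10 over IgG (1.46-fold, adjusted p = 0.0042) and by 0.41 ± 0.10 over input (1.33-fold, adjusted p = 0.0152). The call over input ended without input replicate 2 (0.39, adjusted p = 0.0509). A dimmer row that lists H1f10 with Gm5577 went the other way over IgG, at -0.34 ± 0.10 (adjusted p = 0.0279).

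H2ax, the variant phosphorylated at DNA breaks, followed H1f1. It had 12.83, 12.80 and 12.93 in Pum2, 12.05, 12.13 and 11.89 in IgG and 12.86, 12.82 and 12.89 in input. IgG was well below the others, which overlapped. The difference was 0.83 ± 0.08 over IgG (1.78-fold, adjusted p = 1.88e-04), -0.83 ± 0.08 in IgG over input (adjusted p = 7.86e-04) and 0.00 ± 0.08 for Pum2 over input (adjusted p = 0.999).

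H2az2, one of the genes of the promoter-associated variant H2A.Z, stood the other way. It had 11.43, 11.39 and 11.61 in Pum2, 11.90, 11.79 and 11.80 in IgG and 12.38, 12.35 and 12.21 in input. The groups did not overlap, with Pum2 lowest and input highest. Pum2 differed by -0.35 ± 0.09 from IgG and by -0.84 ± 0.09 from input, and IgG by -0.48 ± 0.09 from input (adjusted p = 0.0174, 1.72e-04 and 0.00932). The call over IgG was lost with centring (-0.24) and without Pum2 replicate 1 (-0.33), Pum2 replicate 2 (-0.31) or IgG replicate 1 (-0.32). H2az1, the other H2A.Z gene, had -0.03 ± 0.17 over IgG (adjusted p = 0.936) and -0.64 ± 0.17 in Pum2 over input (adjusted p = 0.0194, lost without input replicate 2 at -0.55). H2aw and H2aj, H2A genes outside the main clusters, were called in no comparison.

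The H3.3 genes H3f3a and H3f3b encode the H3 variant laid down outside replication, and their 7 rows all list several symbols. Over IgG 2 were higher and 0 lower (2 lower at an unadjusted p under 0.05, where 8642 of all 41345 rows were). In Pum2 over input 0 were higher and 3 lower (1 higher at an unadjusted p under 0.05), and with quantile normalization 3 were higher and 2 lower. With that normalization 8748 of all 41345 rows were higher and 5597 lower. In IgG over input 0 were higher and 1 lower (0 higher at an unadjusted p under 0.05). The pair of rows that list H3f3a with Gm12657 were below input in Pum2, at -0.91 ± 0.11 (row 17220177) and -0.35 ± 0.08 (row 17548518; adjusted p = 4.27e-04 and 0.0119). The second of these calls ended with quantile normalization (-0.19) or centring (-0.22). Row 17258521, which lists H3f3b first of 5 symbols, was higher by 0.35 ± 0.07 over IgG (adjusted p = 0.00661). The brightest row led by H3f3b (17548283) was at 0.23 ± 0.07 over IgG (adjusted p = 0.048), a call that ended when any 1 of the 9 arrays was left out (0.20 to 0.27). All 3 rows led by H3f3a were negative over IgG and all 4 led by H3f3b positive, but a row of 5 symbols cannot be assigned to either gene.

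Outside the main clusters, H4f16 has 2 rows. The brighter (17548561) had 10.79, 10.64 and 10.93 in Pum2, 9.11, 9.38 and 9.37 in IgG and 11.27, 11.24 and 11.60 in input. IgG was far below the other groups and input was highest. The differences were 1.498 ± 0.13 over IgG (2.83-fold, adjusted p = 9.48e-05), -0.58 ± 0.13 in Pum2 over input and -2.08 ± 0.13 in IgG over input (adjusted p = 0.00904 and 3.16e-04). The dimmer row was at -0.44 ± 0.15 over IgG (adjusted p = 0.0586). The row that lists H2bu2 with the pseudogene H2bu1-ps was lower in Pum2 than in IgG and input, at -0.48 ± 0.10 and -1.03 ± 0.10 (adjusted p = 0.00794 and 1.17e-04).

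The row of H2bu1-ps alone had 5.94, 6.24 and 5.95 in Pum2, 4.77, 5.49 and 5.39 in IgG and 6.77, 7.14 and 6.83 in input. IgG was lowest and input highest, without overlap. It was at 0.82 ± 0.20 over IgG (adjusted p = 0.0138), a call lost without Pum2 replicate 2 (0.72, adjusted p = 0.0521), and at -0.87 ± 0.20 and -1.69 ± 0.20 in Pum2 over input and IgG over input (adjusted p = 0.00933 and 0.00129).

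**Figure D4:**
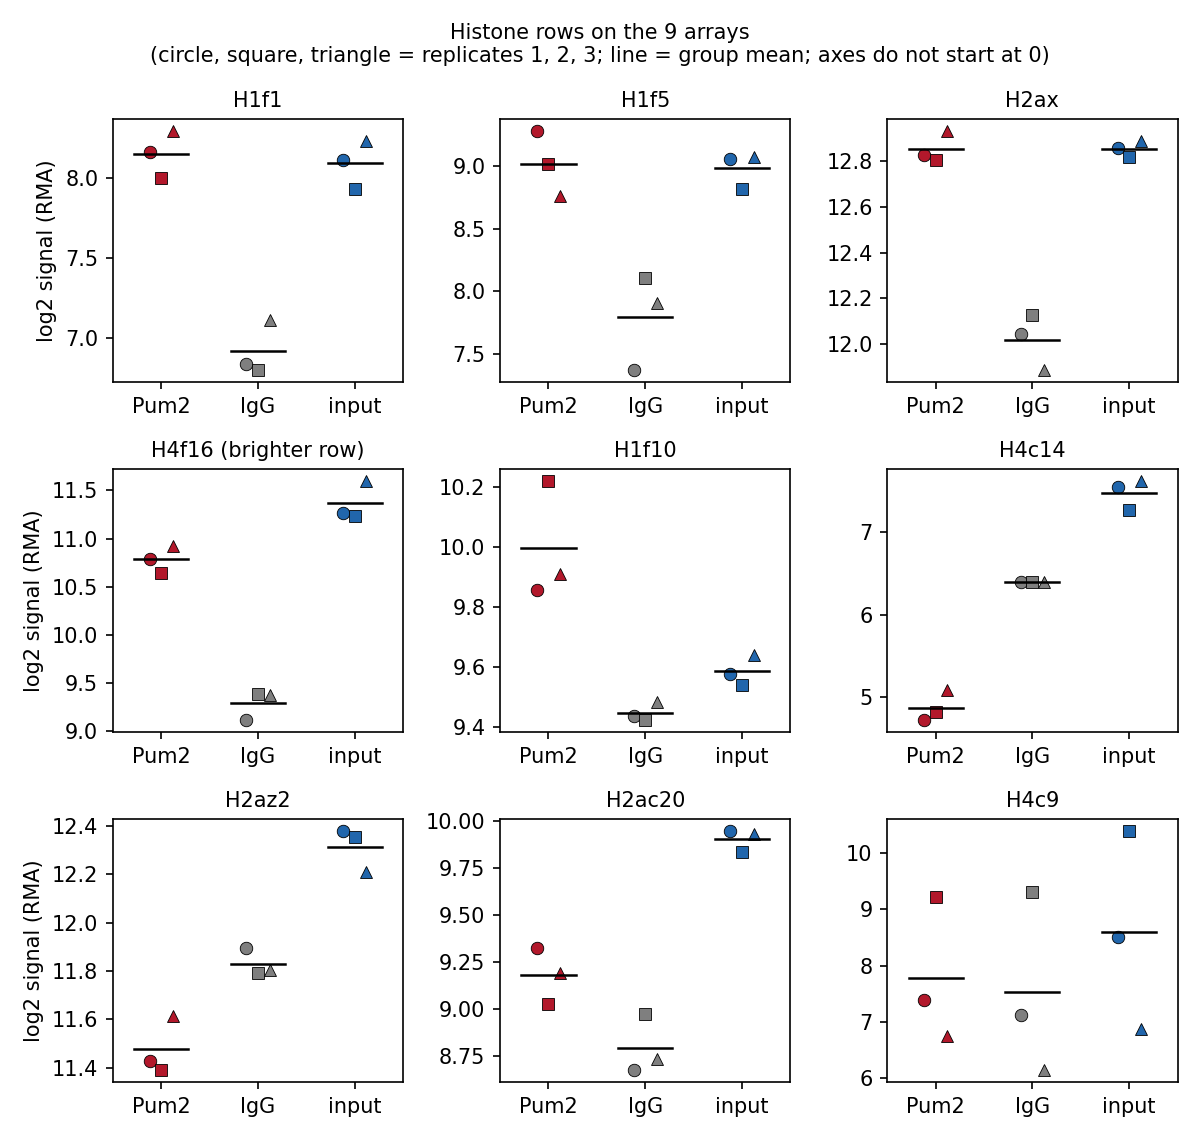
Log2 signals (y axes, not starting at 0) of 9 histone rows on each array, Pum2, IgG and input from left to right, with symbols for replicates 1, 2 and 3 and a line at the group mean. H1f1, H1f5, H2ax and the brighter H4f16 row are lowest in IgG, H1f10 is highest in Pum2, H4c14 and H2az2 are lowest in Pum2, and both precipitates lie below input for H2ac20. H4c9 keeps the same order of replicates in every group.

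Variants of the germ-cell type, such as H2A.L and H2A.B of the testis, are not known to be used in cortex, and the male germ cell marker list gave no call in any comparison. The mean level of those 4 markers was 4.29 to 4.32 in Pum2, 4.27 to 4.49 in IgG and 4.18 to 4.34 in input. Of the 27 rows of these variants, 16 were at or above the median level, where none of the 4 markers was, and 24 were not called over IgG. The row of H2ab1 with Gm14989 (17548879) had 7.53, 7.36 and 7.57 in Pum2, 8.74, 8.40 and 8.43 in IgG and 8.81, 9.01 and 8.88 in input. Pum2 was lowest without overlap, at -1.04 ± 0.11 over IgG (adjusted p = 2.84e-04) and -1.41 ± 0.11 over input (adjusted p = 4.42e-05). The 2 rows of H2ab1 alone were not lower (0.07 ± 0.13 and 0.27 ± 0.13 over IgG). Row 17548877 of these, a dim row with a mean level of 4.85, was at 0.42 ± 0.13 over input (adjusted p = 0.0372). H2al1m had 5.75, 5.92 and 5.87 in Pum2, 6.27, 6.72 and 6.73 in IgG and 5.93, 6.04 and 5.91 in input. It was high in IgG, at -0.73 ± 0.13 in Pum2 over IgG (adjusted p = 0.00329) and 0.61 ± 0.13 in IgG over input (adjusted p = 0.0164). That last value is the single higher histone call of IgG over input, and it ended without IgG replicate 2 (0.54), IgG replicate 3 (0.54), input replicate 1 (0.60) or input replicate 3 (0.59).

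Genes that process histone mRNA were read from 1 row each, and 20 of the 21 with a row were at or above the median level. Pum2 over IgG gave 12 higher and 1 lower (22% and 22% of all rows that bright), Pum2 over input 11 and 2 (23.7% and 24.5%), and IgG over input 2 and 5 (9.27% and 12.9%), with medians of 0.31, 0.37 and 0.03 against 0.02, 0.03 and 0.00 over those rows. With 1 array left out, the higher calls went down to 8 over IgG (without Pum2 replicate 1, Pum2 replicate 3 or IgG replicate 2) and to 9 over input (without Pum2 replicate 1, Pum2 replicate 3 or input replicate 3). Npat, the coactivator that turns on replication-dependent histone genes, was 0.67 ± 0.08 above IgG (adjusted p = 4.7e-04) and 1.105 ± 0.08 above input (adjusted p = 2.94e-05). Slbp, the stem-loop binding protein, had 9.76, 9.47 and 9.95 in Pum2, 9.14, 9.13 and 9.30 in IgG and 9.49, 9.18 and 9.36 in input. Its Pum2 arrays lay above IgG but overlapped input. It was higher over IgG by 0.54 ± 0.14 (adjusted p = 0.0179) and was not called over input (0.38 ± 0.14, adjusted p = 0.0669). Lsm1, of the complex that starts decay of these mRNAs, was at 0.87 ± 0.12 over IgG (adjusted p = 8.93e-04). Lsm10, a part of the U7 particle that cuts the histone mRNA 3′ end, fell, with -0.71 ± 0.11 over IgG (adjusted p = 0.00162) and -1.19 ± 0.11 over input (adjusted p = 8.8e-05).

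S phase genes gave 15 higher and 0 lower of 20 over IgG (limma, 1 lower at an unadjusted p under 0.05), 15 and 1 over input, and 0 and 2 in IgG over input (1 higher at an unadjusted p under 0.05). All 20 were at or above the median level, where 22% of rows were higher and 22% lower over IgG, 23.7% and 24.5% in Pum2 over input, and 9.27% and 12.9% in IgG over input. The licensing factors Cdt1 and Cdc6 were higher over IgG by 0.99 ± 0.09 and 0.84 ± 0.13 (adjusted p = 9.88e-05 and 0.00155). Mki67, a marker of dividing cells, was at -0.996 ± 0.08 over IgG (adjusted p = 5.5e-05). Histone chaperone and deposition genes gave 7 higher and 4 lower of 23 over IgG, 9 and 3 over input, and 4 and 2 in IgG over input. All 23 were at or above the median level, and the 7 and 4 over IgG are near the shares of all rows that bright (22% and 22%). Without Pum2 replicate 1 or input replicate 2 the higher calls over input went down to 5. Asf1b, a chaperone of H3 and H4, was at 0.73 ± 0.07 over IgG and Ipo4, an import factor, at 0.71 ± 0.08, while Atrx, which deposits H3.3, was at -0.79 ± 0.11 (adjusted p = 1.61e-04, 2.58e-04 and 7.94e-04). Cenpa, the H3 variant of centromeres, differed by -0.72 ± 0.09 from IgG and by -1.098 ± 0.09 from input (adjusted p = 4.28e-04 and 3.91e-05), and the macroH2A genes Macroh2a1 and Macroh2a2 were not called.

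Markers of several cell types were called between the Pum2 group and the others, and all were at or above the median level. At that level 22% of rows were higher and 22% lower over IgG, and 23.7% and 24.5% in Pum2 over input. Endothelial markers were higher over IgG in 2 of 6 and over input in 4 of 6, with a mean level of 8.41 to 8.49 in Pum2, 7.76 to 8.16 in IgG and 7.79 to 7.89 in input. The 2 of 6 over IgG is near the share of all rows that bright, but all 6 differences were positive. At an unadjusted p under 0.05 (limma) 6 were higher, and 4 were called with quantile normalization and 6 with centring. Of the 20673 rows at or above the median level, 5809 were higher over IgG at that unadjusted p. Those scalings also raised the higher calls over all 41345 rows, from 4877 to 9117 and 7355. Meningeal and mesenchymal markers were higher in 3 of 6 and 6 of 6, with 8.01 to 8.11 in Pum2, 7.57 to 7.87 in IgG and 7.35 to 7.42 in input. Erythroid markers were lower over input in 2 of 4, with 8.48 to 9.18 in Pum2, 8.84 to 9.73 in IgG and 9.21 to 9.65 in input. Radial precursor markers were higher in 4 and lower in 0 of 9 over IgG (0 lower at an unadjusted p under 0.05), and 4 were higher and 2 lower over input (Fabp7 at -0.37 and Hes5 at -0.34, named after their values were seen), with 9.74 to 9.88 in Pum2, 9.39 to 9.52 in IgG and 9.51 to 9.57 in input. Young neuron markers were higher in 1 and lower in 1 of 7 over IgG and 4 and 2 over input, with 10.40 to 10.45 in Pum2, 10.47 to 10.56 in IgG and 10.18 to 10.31 in input. The part of these cells in the histone differences was not tested.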

How the data were processed

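RNA of the 3 groups was hybridised to Mouse Gene 2.0 ST arrays, 3 per group. The authors deposited log2 values, made with RMA in Affymetrix Expression Console per the submitters' processing notes, with no version stated. RMA corrects background, normalizes arrays and summarises probes. The labels' protocols name RNA amplification before labelling. An array has no read depth, so the number of arrays limits the precision.

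Symbols were taken from the platform's probe annotation. Of 41345 rows, 23521 carry 1 symbol, 1814 several, and 16010 are unnamed here. Histone probes can cross-hybridise between near-identical copies, and a row with several symbols is not assigned to any 1 of them. Among the histone rows, 5 copy the values of another row, which leaves 105 distinct rows. Classes were set from symbols, and testis-type cluster genes were counted with the clusters.

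All rows were tested in 1 fit of the 9 arrays and 3 groups with limma 3.58.1 in R 4.3.3, unblocked, with two-sided p-values and 6 residual degrees of freedom. Replicates are biological per the labels, and p-values rest on their spread. With 3 against 3 arrays, exact permutation could not go below 0.1. The pipeline was tested on simulated data. Figures and promoter searches used Python 3.11.15. Alternatives are given in the closing section.

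Per-array values were given by rule. Across the comparisons of Pum2 with IgG, of Pum2 with input and of IgG with input they cover up to 10, 6 and 6 called single-symbol rows of at least median level with the largest moderated t. The 4 brightest single-symbol variant rows and 6 rows with several symbols were added, and any other row described was chosen after its values were seen. Other genes were read from their brightest single-symbol row. By rule, those named are the list members with the largest moderated t and Pum2, Slbp, Npat and Mki67. Lsm1, Cdc6 and Atrx were named outside that rule, and Macroh2a1 and Macroh2a2 were added. The members and lists were chosen with earlier results of these data known.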

Additional observations from a re-analysis of the deposited data

How the results depend on the processing

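Calls of histone rows were recomputed under other scalings, filters and array sets, and no single-row value changed sign past a threshold. Over IgG, Pum2 had 31 histone rows higher with quantile normalization and 29 with centring on brighter rows. Of all 41345 rows, 9117 and 7355 were higher under those scalings. Over input Pum2 had 13 and 11 histone rows higher under those scalings, where 8748 and 8873 of all rows were. It had 1 higher when the fit held only the groups compared, and IgG over input had 2 higher with only rows at or above the median level. Leaving out 1 array at a time gave 11 to 17 higher and 11 to 15 lower in Pum2 over IgG, 1 to 5 and 34 to 41 in Pum2 over input, and 0 to 2 and 29 to 40 in IgG over input, the fewest lower without IgG replicate 1 or input replicate 3. With identical rows counted once, an alternative chosen after seeing the data, the counts were 16 and 14, 2 and 40, and 1 and 41. Among single-row values, quantile normalization ended 4 calls and added 6, centring ended 7 and added 8, and the fit on only the groups compared ended 7 and added 1. The cause of these changes was not tested.

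For the processing genes, quantile normalization gave 2 lower over IgG, 1 lower in Pum2 over input and 4 higher in IgG over input. Centring gave 1 lower in Pum2 over input, and the brighter rows or an intensity trend with a robust prior gave 4 higher in IgG over input. Leaving out 1 array gave 1 to 2 lower in Pum2 over input and 2 to 4 lower in IgG over input, and 3 were lower in IgG over input with only the groups compared. For the chaperone genes, centring gave 2 lower over IgG. The brighter rows and the intensity trend each gave 5 lower in Pum2 over input and 4 lower in IgG over input, and only rows with a symbol gave 5 lower in Pum2 over input. Only the groups compared gave 2 higher in IgG over input, and leaving out 1 array gave 5 to 9 higher in Pum2 over input, and 2 to 3 higher and 1 to 2 lower in IgG over input. For the S phase genes, IgG over input had 1 higher with quantile normalization, 1 lower with only the groups compared and 0 to 2 lower with 1 array left out.

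Replicate numbers were tested as a block. Deviations of same-numbered arrays correlated at 0.0129 to 0.0602, and others at -0.0459 to 0.013. Of 18 best matches, 17 had the same number, so the numbers may pair the arrays. The main fit was left unblocked because the correlations were small, and the results with a block follow. With the replicate block 17 histone rows were higher and 13 lower over IgG, 3 and 43 in Pum2 over input, and 1 and 39 in IgG over input. The block gave 1 processing gene lower in Pum2 over input and 3 lower in IgG over input, and 2 chaperone genes higher in IgG over input. Among single rows it ended 6 calls and added 5. In Pum2 over IgG it ended those of H2ac20, the brighter H2ac21 row and H3f3b row 17548283 (adjusted p = 0.0606, 0.0786 and 0.0907), and in IgG over input those of H2bc9, H2az1 and the H2ac4 row 17285867 (adjusted p = 0.079, 0.0754 and 0.0811). It brought past the threshold H4c12 in Pum2 over input (adjusted p = 0.0285), H4c9 in Pum2 and IgG over input (-0.81 and -1.07, adjusted p = 0.0309 and 0.0269) and H2bc21 in the same comparisons (-0.63 and -0.53, adjusted p = 0.0105 and 0.0431). Dim rows limit the values near background.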

Other observations

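The row of H4c9, a replication-dependent H4 gene, kept the order of the replicate numbers in all 3 groups. It had 7.38, 9.22 and 6.75 in the Pum2 precipitates, 7.12, 9.32 and 6.14 in IgG and 8.50, 10.40 and 6.88 in input for replicates 1, 2 and 3. A term for the replicate number gave a moderated F of 107.6 (limma adjusted p over all rows = 0.0516). The row of H2bc21, an H2B gene of the chromosome 3 cluster, was lowest in replicate 3 of each group, with 7.97, 8.22 and 7.55 in Pum2, 8.25, 8.44 and 7.34 in IgG and 8.80, 8.73 and 8.11 in input (F = 23.7, adjusted p = 0.429). Of 41345 rows, 5 had a replicate term past the threshold, none of them a histone row. At an unadjusted p under 0.05 (limma), 12 of the 110 histone rows had one, against 2467 of the 41345 rows.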
